A study of Mus musculus with 24 samples.

Results

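Inflammatory cytokine genes of white fat, 10 of the 35275 genes in the deposited expression table, were followed in gonadal and inguinal pads after loss of FoxO1 from adipose tissue and in floxed controls. They were taken by gene symbol, with earlier results of these data known. The cytokines were Tnf, Il1b, Il6, Il10, Il18, Il33 and Osm. The others were the interleukin-1 receptor antagonist Il1rn, the macrophage growth factor Csf1 and the inflammasome sensor Nlrp3. All 10 symbols were found, 1 row each. The series asked which genes and pathways depend on FoxO1, whose protein leaves the nucleus when insulin signals.

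The groups were gonadal fat of conditional adipose FoxO1 knockout mice, gonadal fat of floxed FoxO1 control mice, inguinal fat of the knockout mice and inguinal fat of the controls. Each group held 6 libraries. Per the library names these came from 3 mice, M5, M9 and M12 for the knockout and M6, M7 and M10 for the control, with 2 libraries for each pad, which were averaged so that the mouse was the replicate (n = 3 per group, 12 pads). The same 6 mice gave both depots. The sources used here do not give the promoter driving Cre, the sex, age or diet of the mice, or what the 2 libraries of a pad stand for.

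Tumour necrosis factor and interleukin-1 beta are early signals of inflammation that act on nearly every cell of a fat pad and, in adipocytes, blunt insulin action and raise lipolysis. Interleukin-1 beta and interleukin-18 are made as inactive precursors that the NLRP3 inflammasome and caspase-1 cut, while the antagonist encoded by Il1rn occupies the interleukin-1 receptor without signalling. Macrophages are a main source of most of these products in fat, whereas IL-33 comes chiefly from stromal and mesothelial cells and CSF1, the growth factor of macrophages, from adipocytes and stromal cells.

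Start-site windows of the 4 genes that the results turn on are shown: Il1rn and Il1b had the widest gap between depots, and Csf1 and Il33 were the genes whose knockout pads lay below all control pads. Each window runs from 250 bases before to 50 bases after the annotated start, 5′ to 3′ on the gene's strand, from RefSeq on GRCm38.p6, chosen at the start nearest to that of the deposited gene record. It is in lower case with matches to any of 3 motifs in capitals, searched on both strands: the FoxO core GTAAACA, the AP-1 site TGANTCA and the kB element bound by NF-kappaB. The Il33 window is chr19:29924863-29925162 (+), that of Csf1 chr3:107760420-107760719 (-), that of Il1rn chr2:24336610-24336909 (+) and that of Il1b chr2:129371090-129371389 (-).
Il33: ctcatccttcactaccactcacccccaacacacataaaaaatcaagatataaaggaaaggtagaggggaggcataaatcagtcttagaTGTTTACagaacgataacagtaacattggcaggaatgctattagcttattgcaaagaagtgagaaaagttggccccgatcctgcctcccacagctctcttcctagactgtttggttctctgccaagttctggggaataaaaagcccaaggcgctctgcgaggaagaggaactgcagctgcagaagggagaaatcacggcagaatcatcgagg
Csf1: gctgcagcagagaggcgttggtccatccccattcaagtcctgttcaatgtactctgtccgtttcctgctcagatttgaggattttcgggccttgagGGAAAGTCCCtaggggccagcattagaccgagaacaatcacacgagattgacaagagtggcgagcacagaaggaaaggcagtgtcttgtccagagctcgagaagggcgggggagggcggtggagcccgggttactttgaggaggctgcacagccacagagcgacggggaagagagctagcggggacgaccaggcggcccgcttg
Il1rn: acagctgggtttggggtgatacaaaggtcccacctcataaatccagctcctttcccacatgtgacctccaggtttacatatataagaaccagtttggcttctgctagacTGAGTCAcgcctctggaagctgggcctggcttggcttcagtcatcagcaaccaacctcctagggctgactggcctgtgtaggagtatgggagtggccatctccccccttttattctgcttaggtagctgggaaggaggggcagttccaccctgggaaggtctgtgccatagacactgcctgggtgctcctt
Il1b: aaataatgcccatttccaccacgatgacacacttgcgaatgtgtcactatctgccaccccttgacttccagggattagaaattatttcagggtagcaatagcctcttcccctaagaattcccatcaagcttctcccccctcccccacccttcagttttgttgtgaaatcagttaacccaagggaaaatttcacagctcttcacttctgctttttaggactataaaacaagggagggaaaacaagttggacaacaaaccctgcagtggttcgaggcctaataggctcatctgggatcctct
The Il33 window held 1 FoxO core, on the minus strand at -162 from the start, a motif present in 3.65% of all 32851 RefSeq windows of this length. Csf1 held 1 kB element, as 8.46% of all windows did, and Il1rn held 1 AP-1 site, as 7.81% did. The Il1b window held none of the 3. Of the 10 genes 8 matched a RefSeq window, with 12 windows in all. The Il6 window held 1 kB element and 1 AP-1 site, the nearer of 2 Nlrp3 windows held 1 kB element, and those of Tnf and Il18 held none, so that Il33 was the matched gene with a FoxO core. The Il18 window lies 20573 bases upstream of the deposited gene record. No matches of different motifs overlapped. Il10 and Osm were not matched. A match describes letters in a window and is not evidence of binding.

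Values are FPKM, fragments per kilobase of listed gene length, scaled to the reads of the library. The 24 libraries held 14953657 to 25438811 assigned reads. Foxo1 itself stood at 4.07, 4.46 and 4.01 FPKM in the gonadal pads of M5, M9 and M12, against 13.6, 7.87 and 9.53 FPKM in those of control mice M6, M7 and M10. In inguinal fat it stood at 4.12, 2.49 and 5.69 FPKM in the same knockout mice, against 19.7, 13.0 and 14.5 FPKM in the controls. Every knockout pad lay below every control pad of its depot, although Foxo1 passed the threshold in neither depot (limma adjusted p = 0.407 gonadal and 0.129 inguinal). Some alternative fits did call it in each depot. The authors list Foxo1 as lower, by a log2 fold change of -1.16 in gonadal and -1.61 in inguinal fat. Adipocyte markers were present in every pad, summing to 11930 to 16981 FPKM in knockout and 10553 to 13231 FPKM in control gonadal fat, and to 23117 to 29295 FPKM in knockout and 25649 to 39083 FPKM in control inguinal fat. In gonadal fat 9 of the 10 markers were higher and 1 lower in the knockout, with a median log2 difference of 0.41. At an unadjusted limma p under 0.05, 6 were higher and 1 lower, against 653 and 638 of all 14851 genes tested. In inguinal fat 5 were higher and 5 lower. The part of adipocyte content in the levels of the 10 cytokine genes was not tested. Some pads carried transcripts of neighbouring tissue. The gonadal pads of M12 (knockout), M10 and M6 (controls) held 6887, 2672 and 444 FPKM of 14 epididymis and male tract markers, against at most 1.43 FPKM in the other gonadal pads, where 10 or 11 of the 14 were at 0. The inguinal pads of M9 (knockout) and M7 (control) held 4.43 and 3.85 FPKM of 8 B cell markers, against 196 to 334 FPKM in the other inguinal pads. In a pad, fewer cells of a type and less RNA per cell cannot be told apart.

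**Figure D1:**
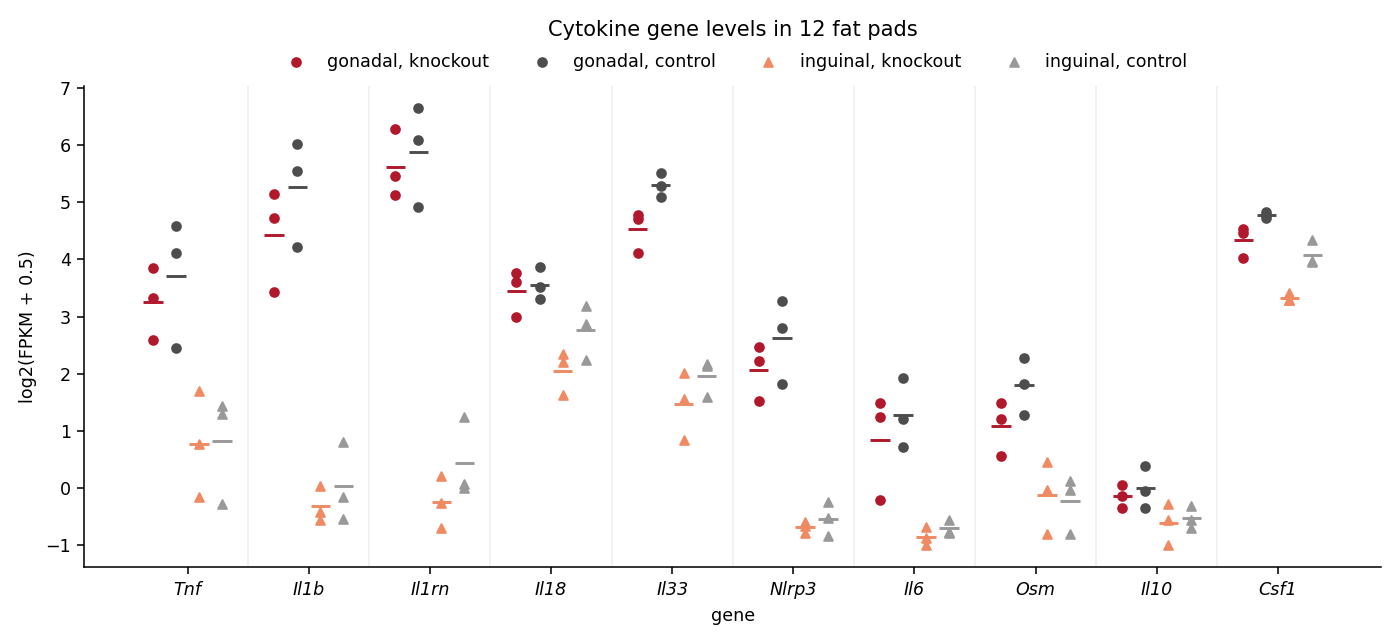
Level of each of the 10 genes as log2(FPKM + 0.5) in the 12 pads, 1 point per mouse and depot with the group mean as a bar, circles for gonadal and triangles for inguinal fat. Gonadal pads lie above inguinal pads most widely for Il1rn and Il1b, and the knockout and control points of most genes intermix, except for Csf1 in both depots and Il33 in gonadal fat.

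In gonadal fat Il1rn was the most abundant of the genes, averaging 51.7 ± 22.8 FPKM over knockout mice and 65.7 ± 35.0 FPKM over control mice (SD, n = 3 each). In control gonadal pads Il1b (43.0 FPKM), Il33 (39.2 FPKM), Csf1 (27.0 FPKM), Tnf (15.1 FPKM), Il18 (11.5 FPKM), Nlrp3 (6.21 FPKM), Osm (3.12 FPKM), Il6 (2.09 FPKM) and Il10 (0.524 FPKM) followed. The ranges over mice of neighbours in that order overlapped for Il1rn and Il1b, Il1b and Il33, Tnf and Il18, Nlrp3 and Osm, and Osm and Il6, and were apart for the other pairs. Knockout gonadal pads kept this order except that Il18 (10.7 FPKM) stood above Tnf (9.67 FPKM), and there too those ranges overlapped. Inguinal fat had another order, led by Csf1 with means of 9.59 ± 0.48 FPKM over knockout mice and 16.6 ± 2.70 FPKM over control mice. Il18, Il33 and Tnf came next in both genotypes, and the other 6 genes had group means of 0.979 FPKM or less, with overlapping ranges between neighbours.

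The depots were further apart than the genotypes for these genes. All 9 genes that reached a mean of 0.5 FPKM over the 12 pads were higher in gonadal than in inguinal fat at a Benjamini-Hochberg adjusted p under 0.05 (limma on log2(FPKM + 0.5), mean of the gonadal groups minus mean of the inguinal groups). That fit does not pair the 2 pads of a mouse. With the mouse as a block in limma the adjusted p was larger for each of the 9 genes, from 2.1e-04 for Il1rn to 0.0074 for Tnf. Across all 14577 genes tested 44.5% were called higher and 19.5% lower in gonadal fat, so a call in this direction was common. A log2 difference of at least 2 was rarer, with 5.41% of genes called and past it, and 5 of the 9 genes, Il1rn, Il1b, Il33, Nlrp3 and Tnf, were among them. Which of the 9 pass 2 depends on the pseudocount. Il6 stood at 1.84 and Osm at 1.62 here, and at 3.19 and 2.38 with a pseudocount of 0.1. Il1b, Il6, Osm and Nlrp3 fell below 0.5 FPKM over the inguinal pads and entered the depot test through their gonadal level, and Il10 did not enter it, so the counts of 9 and of 5 are descriptions. The median over all genes was 0.23 in favour of gonadal fat and 0.02 with median-of-ratios scaling, under which 50.7% rather than 69.5% of calls were upward. All 9 genes were called higher with that scaling as well.

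Nlrp3, the sensor that assembles the inflammasome (ENSMUSG00000032691, chr11:59541568-59566956, +), stood at 5.04, 4.17 and 2.37 FPKM in the gonadal pads of M5, M9 and M12, against 3.04, 9.12 and 6.48 FPKM in those of M6, M7 and M10. The inguinal pads had 0.0792, 0.136 and 0.165 FPKM in the knockout mice and 0.346, 0.0616 and 0.195 FPKM in the controls, from 8 to 56 reads a pad. Every gonadal pad was above every inguinal pad, and knockout and control overlapped in both depots. Within a mouse the gonadal pad had 8.79 to 148 times the inguinal level, and the depot difference was 2.96 ± 0.25 on the log2 scale (SE, limma adjusted p = 4.51e-06). The knockout difference in gonadal fat was -0.56 ± 0.42 (adjusted p = 0.779).

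Il1b, the gene of interleukin-1 beta (ENSMUSG00000027398, chr2:129364570-129371139, -), had 25.9, 34.9 and 10.3 FPKM in the gonadal pads of the knockout mice M5, M9 and M12, against 18.2, 64.3 and 46.5 FPKM in the control mice M6, M7 and M10. In inguinal fat it had 0.249, 0.183 and 0.532 FPKM in the knockout mice and 1.24, 0.185 and 0.404 FPKM in the controls, from 8 to 68 reads a pad. M7 was highest in gonadal fat and M12 lowest, and the genotypes overlapped. The gonadal pad of each mouse held 14.6 to 347 times the level of its inguinal pad. The depot difference of 4.98 ± 0.39 (SE) had an adjusted p of 2.65e-06 with limma and was exceeded by 46 of the genes tested, since Il1b was in place 47. In gonadal fat the knockout mean was 55.1% of the control mean, with a log2 difference of -0.83 and a 95% interval of -2.33 to 0.67 (adjusted p = 0.771). Part of Il1b overlaps Il1bos on the opposite strand, annotated at bases 129369897 to 129375748, which stood at 0.228 FPKM or less, and the sources used here do not say whether the counting used strand.

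Il1rn, the natural antagonist of the interleukin-1 receptor (ENSMUSG00000026981, chr2:24336853-24351494, +), had 77.5, 43.3 and 34.4 FPKM in the gonadal pads of M5, M9 and M12, against 29.8, 99.7 and 67.7 FPKM in those of M6, M7 and M10. Inguinal pads held 0.339, 0.121 and 0.667 FPKM in the knockout mice and 1.88, 0.501 and 0.555 FPKM in the controls, from 12 reads in M9 to 187 in M6. All gonadal pads were high and all inguinal pads low, with genotypes mixed in each depot. It had the widest depot difference of the 10, 5.65 ± 0.35 (SE, limma adjusted p = 6.97e-07, place 26 of all genes tested), and 15.9 to 359 times as much in the gonadal as in the inguinal pad of the same mouse. The gonadal knockout difference was -0.27 with a 95% interval of -1.51 to 0.97, and the inguinal one -0.68 with -1.69 to 0.32 (adjusted p = 0.933 and 0.506).

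The balance of antagonist to cytokine varied between mice. The Il1rn level was 2.99, 1.24 and 3.34 times that of Il1b, per base of listed length, in the gonadal pads of M5, M9 and M12, against 1.64, 1.55 and 1.46 times in the controls. Antagonist transcripts exceeded Il1b transcripts in every gonadal pad. M5 and M12 lay above all 3 controls and M9 below them, so that the genotypes overlapped. In inguinal fat the ratios were 1.36, 0.659 and 1.25 in knockout and 1.51, 2.70 and 1.37 in control mice, resting on as few as 8 Il1b reads a pad.

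Il18, the other inflammasome-processed cytokine (ENSMUSG00000039217), stood at 13.1, 11.6 and 7.51 FPKM in the gonadal pads of M5, M9 and M12, against 14.1, 10.9 and 9.38 FPKM in those of M6, M7 and M10. Inguinal values were 4.57, 2.59 and 4.11 FPKM in knockout mice, against 8.62, 4.24 and 6.79 FPKM in controls. In inguinal fat M9 and M12 lay below all controls, while M5 lay above M7. Gonadal fat was 1.38 to 4.48 times as high as inguinal fat of the same mouse, a difference of 1.10 ± 0.21 (SE, limma adjusted p = 9.36e-04) that did not pass in control mice alone (0.79, adjusted p = 0.0563). The inguinal knockout mean was 57.3% of control (log2 difference -0.71 ± 0.30, adjusted p = 0.348), while the gonadal difference was -0.11 and changed sign without M12, M6 or the pads with male tract transcripts. The deposited record covers chr9:50575273-50581837 (+) with 702 bases, and the GENCODE M21 gene starts upstream at base 50554827, so its level is that of the listed part.

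Il33, the alarmin that activates innate lymphoid and regulatory T cells of fat (ENSMUSG00000024810, chr19:29925114-29960718, +), had 27.0, 25.6 and 16.8 FPKM in the gonadal pads of M5, M9 and M12, against 33.6, 45.3 and 38.5 FPKM in those of M6, M7 and M10. All 3 knockout pads lay below all 3 control pads, as they did for 7.54% of the 14851 genes tested in gonadal fat. The knockout mean was 59.1% of the control mean and the log2 difference -0.77 ± 0.21 (SE, 95% interval -1.27 to -0.26). With an unadjusted limma p of 0.0101 and an adjusted p of 0.454 it missed the threshold, and it passed where each library counted as a replicate (adjusted p = 0.00857), the lowest of its alternatives, which ran up to 0.992. Without the 3 pads holding male tract transcripts, which leaves 1 control mouse, the difference was -0.77. In inguinal fat Il33 stood at 2.46, 1.30 and 3.55 FPKM in knockout and 3.91, 2.54 and 3.996 FPKM in control mice, with overlapping groups (-0.49 ± 0.33, adjusted p = 0.545). The depot difference was 3.19 ± 0.21 (adjusted p = 9.25e-07), with gonadal pads 4.74 to 19.7 times as high. Mesothelial markers moved with the depots as well, summing to 203 to 380 FPKM over 8 markers in gonadal and 2.63 to 6.32 FPKM in inguinal pads, where Upk1b or Wt1 or both were at 0 in 4 pads. Their part in the depot difference was not tested. The mesothelial sum was 227 to 261 FPKM in knockout and 203 to 380 FPKM in control gonadal pads, and that of 10 progenitor and fibroblast markers 1445 to 2308 and 2082 to 2687 FPKM.

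Tnf, the gene of tumour necrosis factor (ENSMUSG00000024401, chr17:35199381-35202007, -), had 14.0, 9.50 and 5.53 FPKM in the gonadal pads of M5, M9 and M12, against 4.95, 23.5 and 16.8 FPKM in those of M6, M7 and M10. M7 and M10 were above every knockout pad and M6 below every one. Inguinal pads had 1.22, 0.394 and 2.75 FPKM in knockout mice, against 2.20, 0.330 and 1.94 FPKM in controls. Its 2 lowest inguinal values were those of M9 and M7, the pads with few B cell transcripts, whose part in them was not tested. The depot difference was 2.69 ± 0.48 (SE, limma adjusted p = 6.51e-04), with gonadal pads 2.01 to 71.1 times as high, and the knockout differences were -0.46 ± 0.61 in gonadal and -0.05 ± 0.63 in inguinal fat (adjusted p = 0.901 and 0.990). The inguinal value was 0.04 with median-of-ratios scaling, so that it had no settled sign.

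Il6, the cytokine of acute phase responses (ENSMUSG00000025746, chr5:30013161-30019968, +), was low, with 1.88, 2.31 and 0.370 FPKM in the gonadal pads of M5, M9 and M12, against 1.16, 3.31 and 1.80 FPKM in those of M6, M7 and M10. M12 stood alone at the low end with 16 reads. The inguinal pads held 0 to 5 reads in knockout and 3 to 6 reads in control mice. The pad of M9 had none, where 3 reads would have given 0.0687 FPKM, a limit that covers counting error only. The depot difference was 1.84 ± 0.30 (SE, limma adjusted p = 3.66e-04). Knockout and control did not differ detectably at this depth, with -0.44 (95% interval -1.74 to 0.85) in gonadal fat and an exact permutation p of 0.3 in inguinal fat, where 3 mice against 3 cannot give less than 0.1.

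Osm encodes oncostatin M, a cytokine of the same family made mainly by myeloid cells (ENSMUSG00000058755, chr11:4236420-4241026, +). It had 2.29, 1.81 and 0.982 FPKM in the gonadal pads of M5, M9 and M12, against 1.94, 4.36 and 3.06 FPKM in those of M6, M7 and M10. M9 and M12 lay below all controls and M5 between them. Inguinal values were 0.474, 0.0768 and 0.879 FPKM in knockout and 0.484, 0.0765 and 0.595 FPKM in control mice, again lowest in M9 and M7. The gonadal difference of -0.71 ± 0.34 (SE) had an adjusted p of 0.627 with limma, and the inguinal one of 0.11 an exact permutation p of 0.9. The depot difference was 1.62 ± 0.28 (adjusted p = 5.64e-04), with gonadal pads 1.12 to 57.1 times as high as inguinal pads.

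Il10, the anti-inflammatory member (ENSMUSG00000016529, chr1:131019845-131024974, +), was the least abundant gene in gonadal fat, with 0.410, 0.544 and 0.289 FPKM in the pads of M5, M9 and M12, against 0.812, 0.289 and 0.470 FPKM in those of M6, M7 and M10. Inguinal pads had 0.182, 0 and 0.322 FPKM in knockout mice, against 0.305, 0.115 and 0.177 FPKM in controls, from 0 to 16 reads. Groups overlapped in both depots (exact permutation p = 0.7 gonadal and 0.9 inguinal, two-sided). It was higher in the gonadal pad of 5 of the 6 mice, M12 being the exception, and a two-sided exact sign-flip permutation over mice gave p = 0.0625 for a log2 difference of 0.50. Gonadal Il10 rested on 15 to 50 reads a pad. Its lowest gonadal values, those of M7 and M12, were level, from 16 and 15 reads. M7 had the highest gonadal Tnf, Il1b, Il1rn, Il6, Il33, Osm and Nlrp3, and M12 the lowest level of 7 genes.

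Csf1, the growth and survival factor of macrophages (ENSMUSG00000014599, chr3:107741048-107760469, -), was the gene whose genotypes were apart in both depots. In inguinal fat it had 10.1, 9.35 and 9.27 FPKM in M5, M9 and M12, against 19.7, 14.9 and 15.2 FPKM in M6, M7 and M10, from 1464 to 3321 reads a pad. In gonadal fat it had 22.5, 21.5 and 15.8 FPKM in the knockout mice, against 27.9, 26.1 and 27.0 FPKM in the controls. Every knockout pad was below every control pad in both depots. Such a separation was found for 17.3% of the 13621 genes tested in inguinal fat and for 7.54% in gonadal fat. The knockout mean was 57.7% of control in inguinal fat (log2 difference -0.75 ± 0.12, 95% interval -1.06 to -0.45) and 73.9% in gonadal fat (-0.44 ± 0.14, -0.79 to -0.10). The adjusted p was 0.133 and 0.491 with limma, so neither passed. In inguinal fat the adjusted p over alternatives ran from 5.51e-06 with DESeq2 to 0.461 without M12. In gonadal fat it ran from 0.0184 with each library as a replicate to 0.994, and the difference was -0.24 without the 3 pads holding male tract transcripts and -0.29 without M12. The authors' deposited table lists Csf1 as lower by a log2 fold change of -0.65 in inguinal and -0.39 in gonadal fat, Il33 by -0.67 in gonadal fat and Il18 by -0.55 in inguinal fat. The authors list 2220 genes in inguinal and 1808 in gonadal fat, 1195 and 818 of them lower. Their group means draw on 6 libraries a group, 2 for each pad, whereas here the mouse was the replicate. The depot difference of Csf1 was 0.85 ± 0.10 (adjusted p = 3.41e-05), and the gonadal pad held 1.41 to 2.30 times the level of the inguinal pad of the same mouse.

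**Figure D2:**
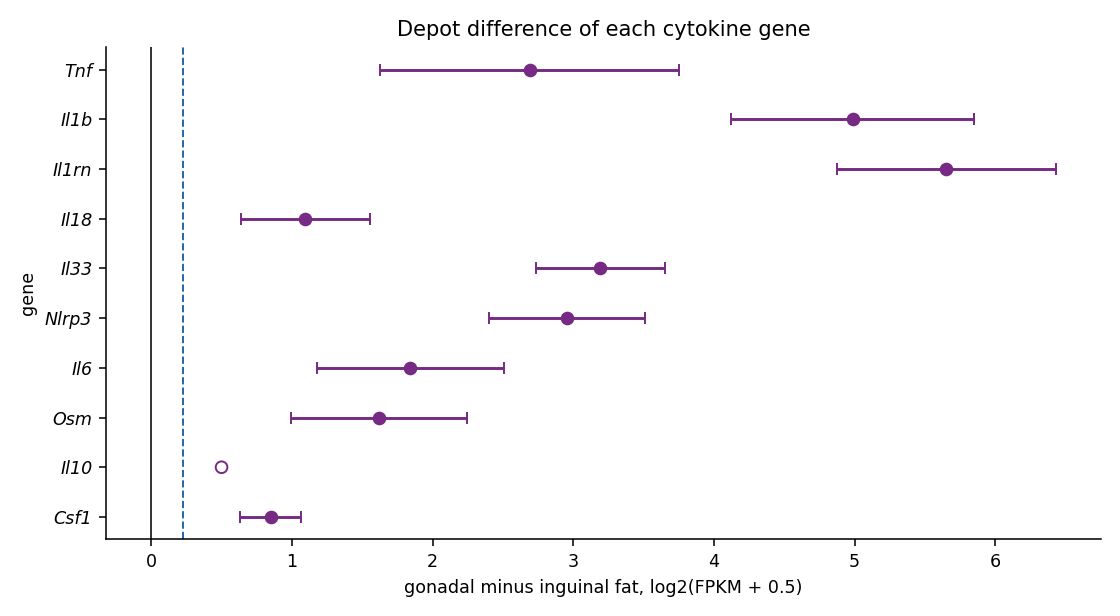
Difference between gonadal and inguinal fat in log2(FPKM + 0.5) for each gene, points being limma estimates over 12 pads with 95% intervals, the open circle the direct difference of Il10, which was below the filter, and the dashed line the median of all genes tested. Il1rn at 5.65 and Il1b at 4.98 lie farthest to the right, and Csf1 at 0.85 and Il18 at 1.10 nearest to the median among the tested genes.

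By limma and by edgeR none of the 10 genes was called in either knockout comparison. DESeq2 called Csf1 in inguinal fat, and counting each library as a replicate called Csf1 in both depots and Il33 in gonadal fat. In gonadal fat 0 of 14851 genes were called by limma (0% of those tested), with 1291 at an unadjusted p under 0.05, 0 by edgeR and 313 by DESeq2. In inguinal fat 3 of 13621 genes were called, 0.022% of those tested and none of them among the 10, with 2024 at an unadjusted p under 0.05, 2 by edgeR and 661 by DESeq2. Counting each library as a replicate, although the 2 libraries of a pad share an animal, gave 1125 gonadal and 2189 inguinal calls. In gonadal fat the knockout mean of all 10 genes was below the control mean, at 54.4% of it for Osm to 93.8% for Il18, and the 9 genes tested had a median log2 difference of -0.46 against -0.02 over all genes. In inguinal fat the knockout mean was below the control mean for 9 genes and above it for Osm, at 123.7%, and the 5 genes tested had a median of -0.68 against -0.10. Lower levels in the knockout were common, with 55.8% of all genes tested in gonadal and 70.6% in inguinal fat. With median-of-ratios scaling the inguinal median of all genes was 0.01 and the difference of Csf1 -0.64. At an unadjusted p under 0.05 Csf1 and Il33 were lower in gonadal fat, where 4.3% of genes were, and Csf1 in inguinal fat, where 11.6% of genes were. The values of the 10 genes come from the same 6 mice and are not independent of each other.

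**Figure D3:**
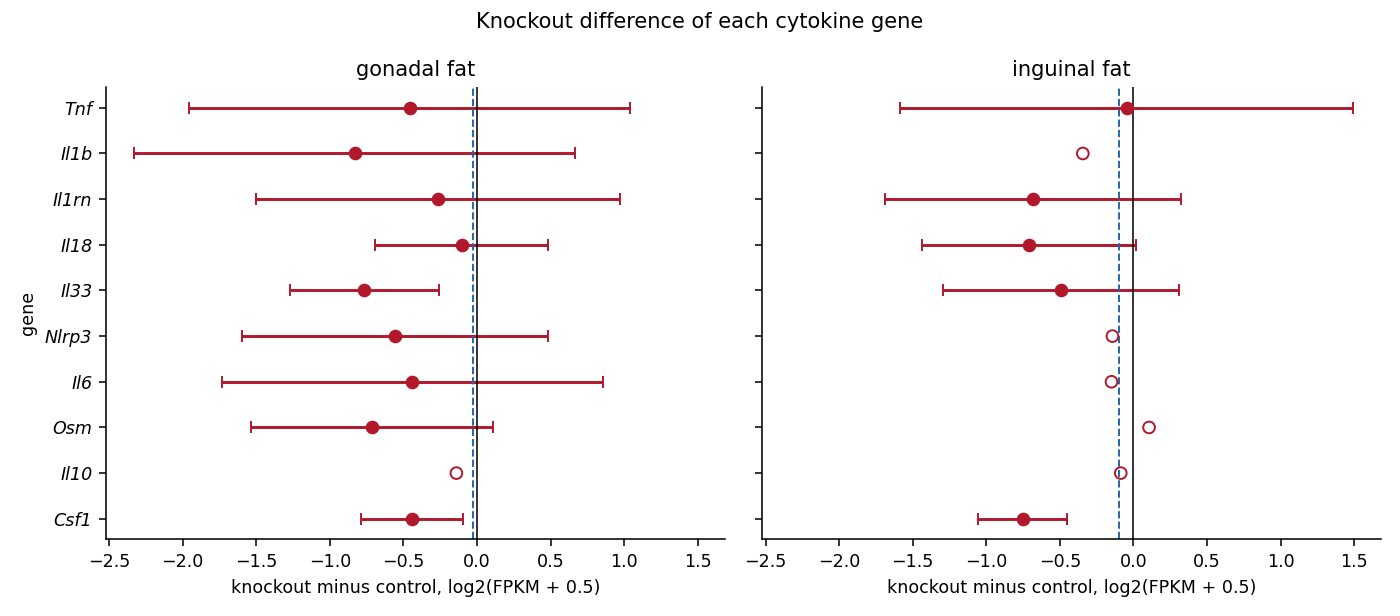
Knockout minus control in log2(FPKM + 0.5) for each gene in gonadal and inguinal fat, filled points being limma estimates with 95% intervals, open points direct differences of genes below the filter and the dashed line the median of all genes tested. Intervals lie wholly below 0 for Il33 and Csf1 in gonadal fat and for Csf1 in inguinal fat.

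The knockout effect was not shown to differ between depots. Of the 14577 genes tested for it, 0 (0%) were called by limma, 725 had an unadjusted p under 0.05, edgeR called 0 and DESeq2 14. Among the 9 tested genes the gonadal minus the inguinal effect ran from -0.82 for Osm to 0.60 for Il18 (adjusted p = 0.99975 for each), and for Csf1 it was 0.31 with a 95% interval of -0.13 to 0.74.

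Mice of a genotype differed widely for most of the genes, and often the same mice were high or low. In gonadal fat control mouse M7 was highest for 7 of the 10 genes and knockout mouse M12 lowest for 7. The level of the highest mouse was 1.76 times that of the lowest for Csf1 and 8.96 times for Il6. Summed over the 10 genes, gonadal pads held 190, 155 and 94.4 FPKM in M5, M9 and M12, against 135, 287 and 218 FPKM in M6, M7 and M10. Control mouse M6 differed from its genotype partners in both directions, with the lowest Tnf and Il1rn of all gonadal pads and the highest Il10, Il18 and Csf1. Macrophage markers, 14 genes, were highest and lowest in the same mice, at 11881, 8125 and 6791 FPKM in M5, M9 and M12, against 8828, 13702 and 11531 FPKM in M6, M7 and M10. Neutrophil markers, 10 genes, summed to 410, 365 and 173 FPKM in the knockout mice and 258, 505 and 647 FPKM in the controls. M12 was also the mouse with the most male tract transcripts. Red blood cell markers, 7 genes, summed to 1612 to 4181 FPKM in knockout and 4224 to 13586 FPKM in control gonadal pads. That sum was thus lower in every knockout than in every control pad, as 7.54% of single genes tested in gonadal fat were. The part of these cells in the gonadal levels was not tested.

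**Figure D4:**
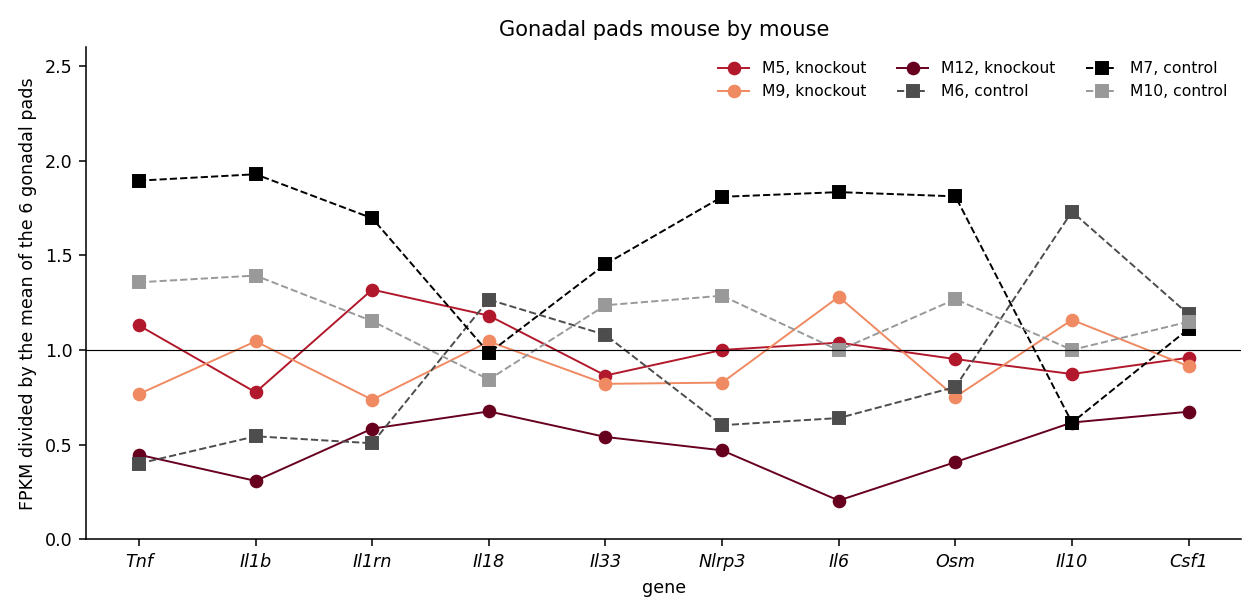
FPKM of each gene in the gonadal pads divided by its mean over the 6 pads, 1 line per mouse, circles with solid lines for knockout and squares with dashed lines for control. The M7 line is highest for 7 genes and the M12 line lowest for 7, while Csf1 and Il33 are the genes with all circles below all squares.

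Inguinal fat ordered the mice in another way. Control mouse M6 was highest for 5 genes and knockout mouse M9 lowest for 6. Macrophage markers summed to 587, 322 and 585 FPKM in the inguinal pads of M5, M9 and M12, against 1412, 658 and 1082 FPKM in those of M6, M7 and M10. They were thus lower in every knockout than in every control pad, as Csf1 was. So were other marker sums of inguinal fat, where 17.3% of the single genes tested separated in this way. The male tract sum was among them, at 0.230 to 0.573 FPKM in knockout and 1.17 to 2.27 FPKM in control pads, with 8 to 13 of the 14 markers at 0. Progenitor and fibroblast markers, of cells that are a source of Csf1, summed to 618 to 734 FPKM in knockout and 918 to 1115 FPKM in control pads. Mast cell markers summed to 36.3 to 52.6 FPKM in knockout and 61.3 to 73.0 FPKM in control pads, and red blood cell markers to 2298 to 2559 and 3059 to 10525 FPKM. The part of these cells in the level of Csf1 was not tested. Across depots, macrophage sums were 6791 to 13702 FPKM in gonadal and 322 to 1412 FPKM in inguinal pads, and neutrophil sums 173 to 647 and 10.7 to 40.3 FPKM. Of the neutrophil markers Ly6g was at 0 in 5 of the 6 inguinal pads. These markers moved with the depot difference of the cytokine genes, and their part in it was not tested. B cell markers overlapped between depots.

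The receptors and partners of these cytokines had 0 calls in either knockout comparison by limma, and those with the smallest unadjusted p-values in each list are named here. In the interleukin-1 receptor list, 14 genes with decoys and adaptors, 12 of 14 tested had a lower level in knockout gonadal fat and 10 of 13 in inguinal fat, with medians of -0.19 and -0.20. Of all genes tested 55.8% had a lower level in knockout gonadal fat and 70.6% in knockout inguinal fat, and the counts of the lists are to be read against these shares. Il1r1, the signalling receptor, averaged 29.7 ± 7.54 FPKM over knockout and 39.8 ± 3.19 FPKM over control gonadal pads, and 4.55 ± 0.27 and 7.08 ± 1.04 FPKM in inguinal fat (SD, n = 3 each). The inguinal difference of Il1r1 was -0.58 on the log2 scale (limma adjusted p = 0.161). Irak3, an inhibitor of the pathway, differed by -0.43 in gonadal fat, Il1rl1, the receptor of IL-33, by -0.64 in inguinal fat, and Il18bp, the decoy of interleukin-18, by -0.55 in gonadal fat (adjusted p = 0.549, 0.276 and 0.638). Of the other interleukin-1 family ligands, 5 genes found, Il1a and Il36g reached the filter in gonadal fat, at 2.91 and 4.36 FPKM in knockout and 3.63 and 8.75 FPKM in control mice. In inguinal fat Il1a averaged 0.147 FPKM over knockout and 0.150 FPKM over control mice, and Il36g 0.0267 and 0.0173 FPKM. Both entered the depot test through their gonadal level, so their differences of 2.43 and 3.49 are a description.

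Inflammasome and cytokine release genes were not called in the knockout and mostly called higher in gonadal fat. Of 12 tested in gonadal fat 11 had a lower level in the knockout, against 55.8% of all genes, and of 10 in inguinal fat 10 did, against 70.6%, with medians of -0.21 and -0.35 and 0 calls. Txnip, an activator of the sensor and a gene of glucose sensing, averaged 130 ± 10.3 FPKM over knockout and 202 ± 65.7 FPKM over control gonadal pads, a difference of -0.58 (limma adjusted p = 0.611). Casp4 differed by -0.27 in gonadal and -0.41 in inguinal fat, and the ATP-gated channels P2rx7 and P2rx4 by -0.36 and -0.21 in inguinal fat (adjusted p of 0.319 or more in each). Between depots 10 of the 11 tested were called higher in gonadal fat, against 44.5% of all genes, P2rx7 by 2.42 and P2rx4 by 1.57, and Txnip, at -0.22, was not called. Nlrc4, which averaged 0.425 FPKM over knockout and 0.520 FPKM over control inguinal pads, entered the depot test through its gonadal level. The count is therefore a description.

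Genes of TNF reception and of NF-kappaB were mostly called higher in gonadal fat. Of 16 NF-kappaB subunits and inhibitors 16 were called higher in gonadal fat, against 44.5% of all genes, with a median difference of 0.999, and of 11 genes of TNF reception and release 9 were, with a median of 0.67 against 0.23 over all genes. In the knockout, Nfkb1, a subunit, stood at 26.9 ± 3.52 FPKM against 34.8 ± 5.24 FPKM in controls in gonadal fat (-0.36, limma adjusted p = 0.568), and Tnip1, an inhibitor, differed by -0.44 (adjusted p = 0.603). Rel, Zfp36, which speeds decay of Tnf transcripts, and the TNF pathway genes Birc3, Traf2, Ripk1 and Rhbdf2 had gonadal differences of -0.28, -0.20, -0.41, -0.22, -0.18 and -0.24. In inguinal fat Rhbdf2, which takes part in the release of TNF, differed by -0.69 and Zfp36 by -0.46 (adjusted p = 0.381 and 0.438). None of these genes was called. The medians of the lists in gonadal fat were -0.21 for NF-kappaB and -0.18 for TNF.

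Receptor chains of interleukin-6 and oncostatin M had lower means in the knockout in both depots, and none passed the adjustment. Il6st, encoding the signalling chain that both use, averaged 29.3 ± 2.13 FPKM over knockout and 40.3 ± 3.88 FPKM over control gonadal pads and 22.7 ± 0.76 and 30.8 ± 3.19 FPKM in inguinal fat. Its differences were -0.45 ± 0.10 and -0.43 ± 0.09 (SE, limma adjusted p = 0.421 and 0.160). Osmr, the oncostatin M receptor, averaged 9.62 ± 1.15 FPKM over knockout and 13.4 ± 0.13 FPKM over control gonadal pads, a difference of -0.46 (adjusted p = 0.421). Il6ra, the interleukin-6 receptor, stood at 10.7 ± 1.21 and 13.8 ± 0.90 FPKM (-0.35, adjusted p = 0.459), and the kinase gene Jak1 at 38.9 ± 0.80 and 45.8 ± 3.51 FPKM (-0.23, adjusted p = 0.520). Knockout and control gonadal pads did not overlap for Il6st, Osmr, Il6ra and Jak1, as for 7.54% of all genes. These genes are named for the smallest p-values of their list in the same pads, so the lack of overlap is a description. Of 15 genes tested in this list 6 had an unadjusted p under 0.05 and a lower level in knockout gonadal fat, against 4.3% of all genes, and in inguinal fat 2 of 14 did, against 11.6%. In the depot comparison 10 of 14 were called higher in gonadal fat, against 44.5% of all genes, and 3 lower, against 19.5%.

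In the list of the CSF1 receptor and other colony-stimulating factors 7 of 7 genes tested had a lower level in knockout inguinal fat, against 70.6% of all genes, with a median of -0.87 against -0.10 over all genes and 0 calls. At an unadjusted p under 0.05 there were 4 of 7, against 11.6% of all genes. Csf1r, the receptor that marks macrophages, averaged 12.9 ± 2.07 FPKM over knockout and 26.7 ± 9.97 FPKM over control inguinal pads (-0.97, limma adjusted p = 0.216). Il34, the other ligand of that receptor, averaged 6.83 ± 1.08 FPKM over knockout and 12.8 ± 0.66 FPKM over control inguinal pads (-0.87 ± 0.13, adjusted p = 0.129), with no overlap, as for 17.3% of all genes. Il34 is named for its small p-value in the same pads, so the lack of overlap is a description. Csf2ra, a receptor chain for another colony-stimulating factor, differed by -0.94 (adjusted p = 0.172). Csf1r is also among the 14 macrophage markers, of which 9 of 13 tested were lower at that unadjusted p in inguinal fat, and their part in the values of this list was not tested. In gonadal fat Il34 differed by -0.14 and Csf1r by -0.46, and the list median was -0.15.

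Of the genes that these cytokines induce, 13 of 15 tested had a lower level in knockout gonadal fat, against 55.8% of all genes, with a median of -0.52 and 0 calls. In inguinal fat 8 of 11 tested did, near the 70.6% of all genes, with a median of -0.26 and 0 calls. Il4ra, a chain of the interleukin-4 receptor, averaged 28.0 ± 3.46 FPKM over knockout and 44.5 ± 6.54 FPKM over control gonadal pads (-0.66, limma adjusted p = 0.421). The monocyte attractant Ccl2 averaged 30.6 FPKM over knockout and 47.6 FPKM over control gonadal pads, and 2.65 ± 0.80 FPKM over knockout and 5.76 ± 3.02 FPKM over control inguinal pads. Ccl7 differed by -0.70 and -1.003 in gonadal and inguinal fat and the adhesion gene Icam1 by -0.56 and -0.03 (adjusted p of 0.215 or more). Il10ra, the ligand-binding chain of the interleukin-10 receptor, averaged 21.5 ± 5.04 FPKM over knockout and 26.04 ± 1.37 FPKM over control gonadal pads, and Il10rb 26.3 and 28.1 FPKM. Il20rb and Il22ra2, on the same list, had inguinal differences of 0.23 and 0.17.

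Of the type 2 cytokines and receptors downstream of IL-33, 4 of 7 tested had a lower level in knockout gonadal fat, with a list median of -0.10, and 3 of 5 in inguinal fat, with -0.08. Both counts are near the shares of all genes, 55.8% and 70.6%. Retnla, a product of alternatively activated macrophages, averaged 212 ± 63.4 FPKM over knockout and 763 ± 209 FPKM over control inguinal pads, with no overlap, as for 17.3% of all genes, a difference of -1.85 ± 0.28 (SE, limma adjusted p = 0.129). Retnla is named for its small p-value in the same pads, so the lack of overlap is a description. Retnla also went against the cytokine genes between depots, since it was called lower in gonadal fat (-2.05, adjusted p = 0.00206). Il4, Il2ra and Il17rb had gonadal differences of 0.16, -0.20 and 0.02.

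**Figure D5:**
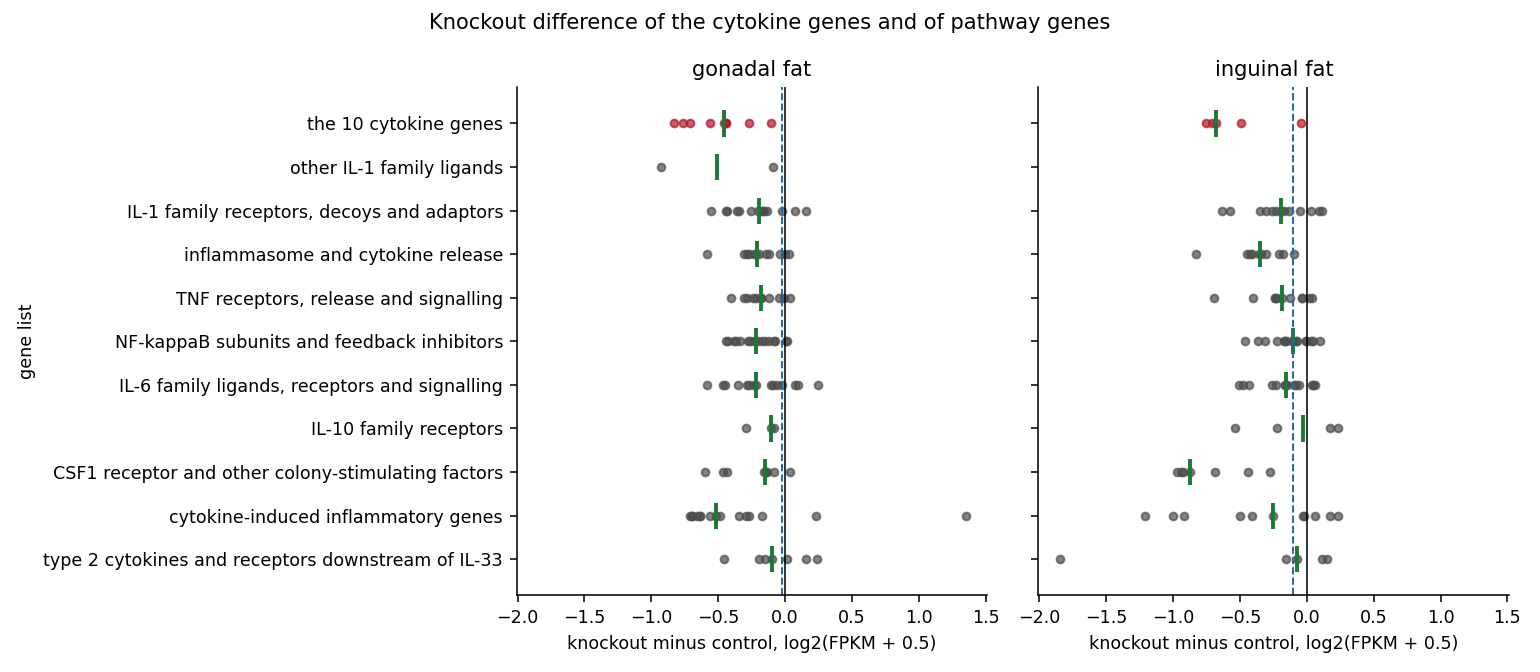
Knockout minus control in log2(FPKM + 0.5) for the 10 cytokine genes and for 10 lists of pathway genes, 1 dot per tested gene, with list medians as green ticks and the median of all genes as a dashed line. Most dots lie left of 0 in both depots, and the CSF1 receptor list, at a median of -0.87 in inguinal fat, and the cytokine-induced list, at -0.52 in gonadal fat, lie farthest left of the pathway lists with at least 3 tested genes.

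The genes whose level was most like that of each cytokine gene over the 12 pads were ranked by Pearson's r of log2(FPKM + 0.5), as a description, since all pads of a depot share that depot. Il1b went with Ccl3 (r = 0.997), Nlrp3 (0.995) and S100a8 (0.993), a calprotectin subunit abundant in neutrophils. Nlrp3 went with Serpinb2 (0.996), Hmox1 (0.996) and Il1b, so that 2 of the 10 genes were each among the other's 3 nearest. Il1rn went with F10 (0.998), Sirpa (0.997) and Slc16a3 (0.997), and Il33 with Socs3 (0.993), Tfec (0.993) and Tlr2 (0.993). Csf1 was nearest to Fam114a1 (0.982), Oat (0.981) and Sept8 (0.979), and Tnf to Snrpd1 (0.991), Ssb (0.989) and Tnfrsf26 (0.988). Osm went with Nfkb1 (0.985), Cct3 (0.984) and Vcam1 (0.983), Il6 with Il36g (0.978, listed under its older symbol Il1f9), Xylt2 (0.968) and Rpl7l1 (0.968), and Il18 with Btf3 (0.983), Mat2b (0.976) and Eif3k (0.9751). Il10 was below the level at which neighbours were sought.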

How the data were processed

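Total RNA was isolated with RNeasy mini columns and sequenced from NEBNext Ultra libraries, per the labels. CASAVA, STAR and the build mm10 are named in the submitters' processing notes; how reads were counted, and whether by strand, is not given. The main deposited table holds FPKM per gene and library, per the file headers. Other deposited tables hold, for genes the authors list as changed, read counts, group means as a scaled signal, log2 fold changes and p-values of the authors, per the file headers. Their 24 FPKM columns were not used.

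A first letter z in a library name was read as knockout, f as floxed control, a last letter e as gonadal and s as inguinal; the authors' group means were weighted means of the columns so assigned. Libraries of 1 pad had r = 0.991 to 0.996 and those of different mice of a group 0.897 to 0.985, so a pad's mean FPKM was 1 replicate. P-values measure the spread between these pads.

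Genes with a mean of at least 0.5 FPKM over the pads of a fit were tested with limma 3.58.1 (trend, two-sided) in R 4.3.3 on log2(FPKM + 0.5), adjusted by Benjamini-Hochberg over all genes tested at a threshold of 0.05. This scale understates changes of low genes, and those below the filter had exact permutation tests over mice. FPKM multiplied by length and by the library total came out whole for 100% of values (tolerance 0.001), and these reads, with totals from the deposited count columns, were tested with edgeR 4.0.16 and DESeq2 1.42.0. Other alternatives were pseudocounts of 0.1 and 1, no filter, median-of-ratios scaling, each library as a replicate, leaving out each mouse, single genotypes and the mouse as a block, which pairs the pads of an animal through the mouse number in the library names. Leaving out pads with male tract transcripts or few B cell transcripts was chosen after seeing the data. The fits were tested on simulated data.

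The 10 genes, 10 pathway lists and 13 marker lists were chosen with earlier results of these data known, and 240 of 241 list genes were in the table. Named list genes are up to 4 per list with the smallest unadjusted p in either knockout comparison; 1 gene that this rule names is not reported here. Named neighbours are the 3 genes with the highest r among those with a mean of at least 1 FPKM, without Gm and Rik models and pseudogenes. Sequences are from RefSeq on GRCm38.p6, the assembly behind mm10.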

Additional observations from a re-analysis of the deposited data

Results flagged for a closer look

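Among 40 sets of 6 libraries, 1 for each gene and group, 1 library stood far from the rest: in control gonadal fat 1 of the 2 libraries of M6 had 16.5 FPKM of Il18, and the other library of that pad had 11.6 FPKM. Chance flags about 1 in 20 sets of independent values; these 6 libraries are 3 pairs from the same pads, so that rate does not apply to them as such. No difference of knockout effects between depots passed for any of the 10 genes.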

How the results depend on the processing

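The direction and the side of the threshold held for the 9 genes of the depot comparison under every alternative run, except that Il18 did not pass in control mice alone. Depot calls numbered 9323, and 6010 in control mice alone. The replicate block, which pairs the pads of a mouse, gave 9427 depot calls and 0 calls for the difference of knockout effects, and changed no call among the 10 genes. Gonadal knockout calls numbered 0, with 313 by DESeq2, 1125 with each library as a replicate and 0 to 1 on leaving out a mouse. Inguinal calls numbered 3, with 661 by DESeq2, 2189 by library, 31 without the 2 pads with few B cell transcripts and 0 to 78 on leaving out a mouse. Calls for the difference of effects numbered 0, with 14 by DESeq2 and 265 by library. Gonadal knockout differences changed sign on leaving out a mouse for Il18 (-0.26 to 0.12, and 0.17 without the pads with male tract transcripts), Il6 (-0.76 to 0.083), Il1rn (-0.75 to 0.11) and Il10 (-0.31 to 0.055). The inguinal difference of Tnf was 0.042 with median-of-ratios scaling, 0.084 with edgeR, 0.11 with DESeq2 and -0.59 to 0.42 on leaving out a mouse. On leaving out a mouse the inguinal differences of Il1b (-0.64 to 0.038), Il10 (-0.25 to 0.11), Osm (-0.19 to 0.44) and Nlrp3 (-0.29 to 0.0029), which no test called, changed sign too. The gonadal minus the inguinal effect changed sign on leaving out a mouse for Tnf (-1.35 to 0.57), Il1b (-1.39 to 0.19), Il1rn (-0.47 to 1.02), Il6 (-0.69 to 0.32, and 0.43 with edgeR and 0.47 with DESeq2), Il33 (-0.67 to 0.21) and Nlrp3 (-0.97 to 0.050). The cause was not tested. With 3 mice a group, the 95% intervals of the gonadal differences of Tnf, Il1b, Il6, Il1rn and Nlrp3 span over 2 log2 units. Below 100 reads a pad the inguinal Il1b, Il6, Il10, Osm and Nlrp3 values are limited by counting. So are those of Il1rn in each inguinal pad but that of M6, of Tnf in M5, M9 and M7, and of Il18 in M9 and M7. Gonadal values below 100 reads were those of Il10 in every pad, of Il6 in M5, M12, M6 and M10, and of Osm in M12.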
